A study of Mus musculus with 9 samples.

Results

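The comparison described here sets the cortex of mouse embryos heterozygous for a mutation in Cyfip2 (Het) against the cortex of wild-type embryos (WT). Its members were chosen by genotype label alone and comprise 3 Het and 3 WT libraries, 6 of the 9 RNA sequencing libraries of the study. All 6 were labelled as cortex of the strain C57BL/6J at embryonic day 18.5. The other 3 libraries came from homozygous mutant embryos (KO) of the same strain and age. In the model they served only to estimate the spread between libraries. They also counted in the mean levels by which genes were filtered, and their values are set beside those of Het and WT for a few genes. The mutant allele is not described in the labels. Nothing in them states that each library was made from its own embryo; the p-values here therefore reflect library-to-library spread, which may be technical. Values are normalized counts, that is, gene counts divided by a size factor for each library, and differences are given on the log2(normalized count + 1) scale, which understates the change of low genes.

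Cyfip2 belongs to the WAVE regulatory complex, where it helps to keep a WAVE protein inactive until the small GTPase Rac binds. The released WAVE protein then switches on the Arp2/3 complex, which builds branched actin networks in growth cones, migrating cells and synapses. Cyfip2 and its paralog Cyfip1 also bind FMRP, the RNA-binding protein lost in fragile X syndrome, and Cyfip1 is known to bind the translation factor eIF4E. In the late embryonic cortex, neurons are settling into layers and extending axons while the last progenitors divide.

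Of the 18820 genes in the table, 15069 reached an average of 10 or more across all 9 libraries and were tested. limma called 0 genes at an adjusted p of 0.05 (Benjamini-Hochberg), and the smallest adjusted p was 1.00. At an unadjusted p of 0.05, 242 genes were counted, 1.61% of those tested, where 5% would be 753 genes. Of these, 145 were higher in Het (0.962%) and 97 were lower (0.644%). After upper-quartile rescaling the split was 139 higher to 130 lower, after quantile normalization 158 to 82. All 3 Het libraries lay above all 3 WT libraries for 506 genes (3.36%) and below them for 499 (3.31%), together 6.67%. Across all genes tested, 6963 were higher in Het and 8106 lower, with a median difference of -0.01 (log2). None of the genes below therefore passed this test over all genes. The gene groups were not tested as groups, and the values are given as descriptions.

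Beyond genotype, the libraries differed in attached tissue, blood and sex. Approximate depth lay between 30.8 and 54.4 M reads (M, mega), with WT replicate 2 the deepest. Cortical neuron genes were high in all 6 libraries: Tbr1, a transcription factor of deep-layer neurons, was at 8835 to 11543. The mitral cell gene Cdhr1 marked olfactory bulb RNA in WT replicate 3 (2230) and Het replicate 1 (3436) and was at 43.3 to 53.1 in the other 4. The Y-linked gene Ddx3y lay between 1394 and 1674 in 5 libraries and was listed at 0 in the other, Het replicate 1, so Het held 1 female and 2 male libraries and WT 3 male ones. The choroid plexus gene Ttr was at 20.7 to 110 in 4 libraries, at 3156 in WT replicate 2 and at 11029 in Het replicate 2. Het replicate 3 stood apart most: 567 genes (3.76% of those tested) were at least 1 log2 unit below all 5 other libraries there, against 9 to 39 genes in each other library. Col1a1, a collagen of meningeal fibroblasts, was at 87.2 in that library and at 2206 to 4252 in the other 5. The parts of these differences in the results below were not tested. For many lists, but not all, the value without a library that turned the direction or moved the median is given.

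**Figure D1:**
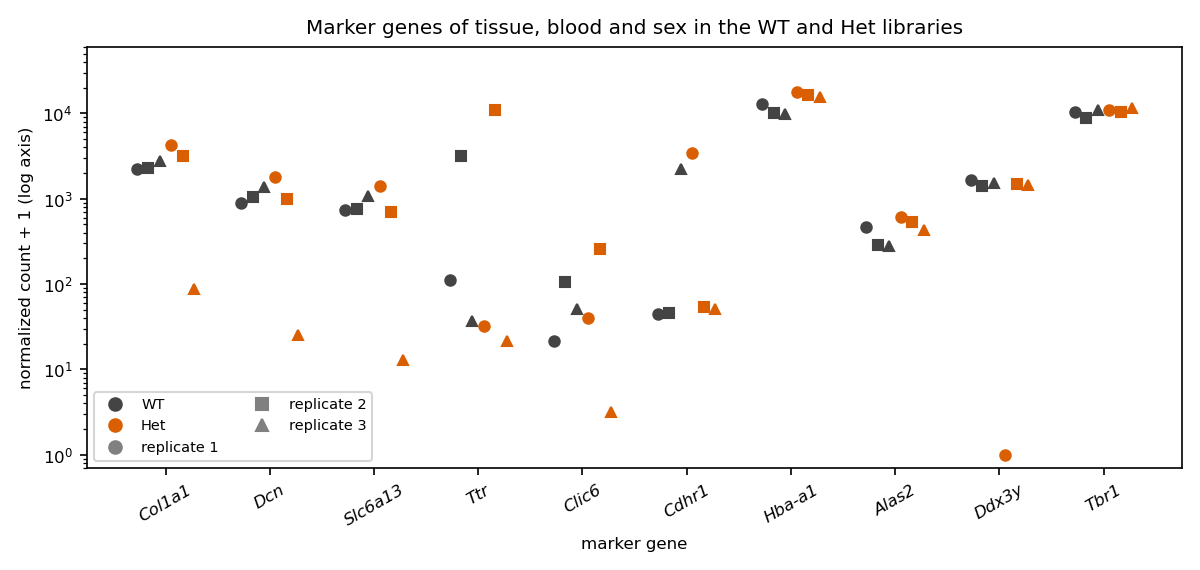
Normalized counts plus 1 (log axis) of marker genes in the 3 WT (grey) and 3 Het (orange) libraries, with 1 point per library and the marker shape giving the replicate number. Het replicate 3 lies far below the others for the meningeal genes Col1a1, Dcn and Slc6a13, Cdhr1 is high in WT replicate 3 and Het replicate 1, and Tbr1 lies between 8835 and 11543 in every library.

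Cyfip2 RNA was lower in every Het library, at 90.4% of the WT mean. Cyfip2 (ENSMUSG00000020340; chromosome 11, 46193850 to 46312859, minus strand, GRCm38) was at 10169, 10345 and 11174 in WT replicates 1, 2 and 3 and at 8969, 9779 and 9882 in the Het replicates. All 3 Het libraries lay below all 3 WT libraries, with the lowest value in Het replicate 1. Means were 10562 ± 537 in WT and 9543 ± 500 in Het (SD, n = 3 each). The difference was -0.15 ± 0.06 (limma SE), with a 95% interval from -0.29 to -0.01, an unadjusted p = 0.042 and an adjusted p = 1.00 in limma. The exact permutation p was 0.10, two-sided, the smallest that 3 against 3 libraries can give. The KO libraries held 7900, 7522 and 8255. Among the 4 libraries low in olfactory bulb RNA the difference was -0.06, and without Het replicate 1 it was -0.10. Since the allele is not described and the value covers the whole gene, these numbers cannot show which share of Het transcripts carries the mutation.

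Fndc9, a gene for a fibronectin type III domain protein, lies within the span of Cyfip2 on the other strand (46235531 to 46239872). Its normalized counts were 29.4, 64.6 and 34.1 in WT and 17.5, 27.4 and 18.3 in Het. The highest Het value lay below the lowest WT value, and replicate 2 was the highest in both groups. Het held 49.3% of the WT level, a difference of -0.93 ± 0.48 with a 95% interval from -2.01 to 0.15 and an exact permutation p = 0.10. Fndc9 was chosen with earlier results of these data known, so this p is not independent of that choice. Without WT replicate 2 the difference was -0.59. The KO libraries held 2.46, 4.50 and 0.914.

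The stretches before the RefSeq starts of Cyfip2 and Fndc9 (GRCm38.p6) are shown because both genes were below WT in every Het library and lie in one locus. Bases that GENCODE places in an exon of the gene were left out, and capitals mark each CG dinucleotide.
Cyfip2, chr11:46312359-46312490, minus strand: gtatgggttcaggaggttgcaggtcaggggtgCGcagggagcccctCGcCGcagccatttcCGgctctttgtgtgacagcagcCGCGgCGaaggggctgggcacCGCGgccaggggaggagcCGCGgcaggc
Fndc9, chr11:46235307-46235530, plus strand: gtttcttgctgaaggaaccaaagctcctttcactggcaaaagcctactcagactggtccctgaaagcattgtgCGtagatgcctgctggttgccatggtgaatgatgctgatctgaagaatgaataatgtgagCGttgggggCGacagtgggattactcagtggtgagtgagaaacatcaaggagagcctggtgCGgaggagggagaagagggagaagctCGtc
The full 250 bases before the start hold 16 CG in Cyfip2 and 8 in Fndc9, with 66.4% and 53.6% G or C. Of 32851 such windows in the RefSeq table, 25.4% held at least as many CG as Cyfip2 and 43.0% at least as many as Fndc9, and the median was 6. Neither window holds TATAA or CCAAT on the gene's strand. These counts describe the letters and say nothing of how either gene is regulated.

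**Figure D2:**
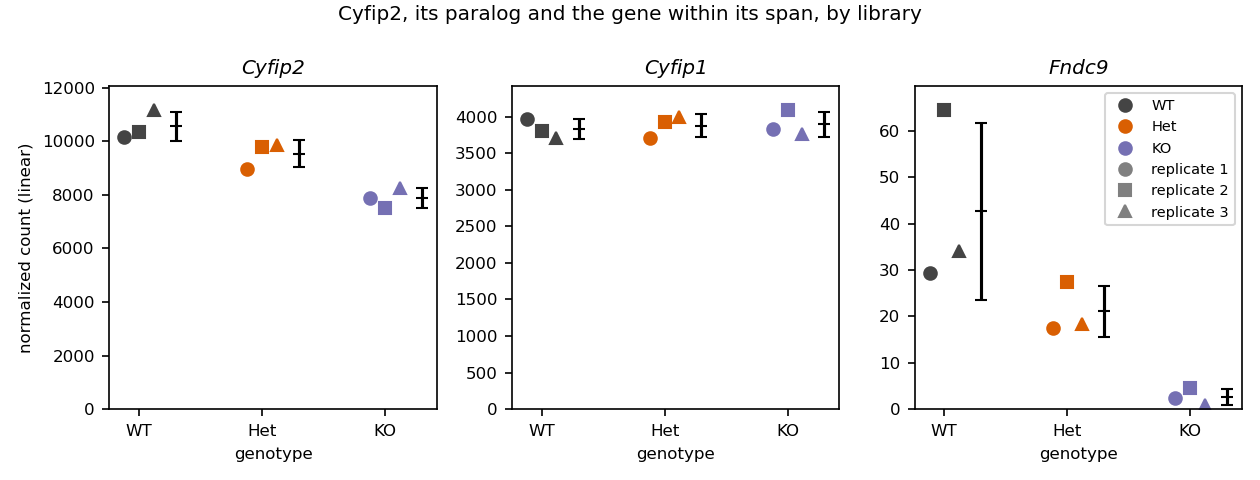
Normalized counts (linear axis) of Cyfip2, its paralog Cyfip1 and Fndc9 in every WT, Het and KO library, with the mean and SD of each genotype (n = 3) as the bar beside the points. Cyfip2 and Fndc9 are below WT in all 3 Het libraries, at 90.4% and 49.3% of the WT mean, while the Cyfip1 groups overlap at 101% of WT.

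Among the genes that neighbour Cyfip2 on chromosome 11, 18 of 21 tested were lower in Het, with a median of -0.11 against -0.01 over all genes. Of the 26 genes listed, 3 were below the filter and 2 were not analysed here. All Het libraries lay below all WT libraries for 4 of the 21 (19.05%, against 3.31% of all genes): Fndc9, Ttc1, Med7 and Havcr2. Ttc1, a tetratricopeptide repeat protein, was at 1025, 1014 and 1004 in WT and 973, 875 and 913 in Het, a difference of -0.14 ± 0.08. Med7, a subunit of the Mediator complex, was at 686, 751 and 711 in WT and 671, 663 and 651 in Het. Havcr2, a receptor of microglia and T cells, was at 14.8 to 16.5 in Het and above that in every WT library, a difference of -0.46 ± 0.34. The strongly expressed neighbours overlapped between groups: the metalloprotease Adam19 differed by -0.05 ± 0.08 and the ubiquitin ligase Rnf145 by -0.04 ± 0.05. Without Het replicate 3, 8 of 21 were higher in Het and the median was -0.06. It was also -0.06 without WT replicate 3 and after quantile normalization, and -0.04 over the 16 members whose mean reached 50.

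The partners of Cyfip2 in the WAVE complex were near their WT levels. Of 11 tested subunit genes, 6 were higher in Het and 5 lower, with a median of 0.01. That median was -0.02 after quantile normalization and -0.01 after upper-quartile rescaling. Without Het replicate 1, 4 of 11 were higher and the median was -0.03. Over all alternatives run, the median lay between -0.07 and 0.01. Of the 11, 1 had groups that did not overlap, Cyfip2 itself, against 6.67% of all genes. Cyfip1, the subunit that can take the place of Cyfip2, was at 3968, 3807 and 3705 in WT and at 3703, 3924 and 3999 in Het. The groups overlapped, and the difference was 0.02 ± 0.05, with a 95% interval from -0.11 to 0.14. The scaffold subunit Nckap1 was at 12718, 12576 and 12143 in WT and at 10974, 13550 and 13235 in Het, which put Het replicate 1 lowest and the other 2 highest of the 6. Its difference was 0.01 ± 0.08.
The effector subunits, which contact Arp2/3 once released, differed by 0.01 ± 0.10 for Wasf1, 0.05 ± 0.25 for Wasf2 and -0.10 ± 0.09 for Wasf3. The Abi subunits differed by 0.03 ± 0.05 for Abi1, -0.06 ± 0.10 for Abi2 and 0.04 ± 0.43 for Abi3, and the small subunit Brk1 by -0.08 ± 0.06. Nckap1l, the scaffold of blood and immune cells, was at 131 to 160 in WT and 175, 147 and 87.0 in Het, with its low value in Het replicate 3. The 95% interval of Wasf1 ran from -0.22 to 0.23.

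The Arp2/3 complex, the actin nucleator that WAVE activates, had a lower mean in Het for each of its 10 genes, with a median of -0.05. Actr2, one of the actin-related subunits at its core, was at 8961, 8887 and 9190 in WT and 8011, 8007 and 8667 in Het. Actr3b, a brain-enriched form of the other core subunit, was at 1023, 996 and 1067 in WT and 922, 900 and 937 in Het. In both genes every Het library lay below every WT library, by -0.13 ± 0.07 and -0.16 ± 0.09. They were 2 of 10 (20%), against 3.31% of all genes. Actr3 itself overlapped and differed by -0.01 ± 0.07. The list's median relative to the WT mean was -0.10 in Het replicate 1, -0.09 in Het replicate 2 and 0.02 in Het replicate 3, and without Het replicate 1, 4 of the 10 genes were higher in Het. Of the 10 genes, 5 belong to the class of shortest transcripts described with the mitochondrial genes.
Of the genes that turn over actin filaments, 8 of 20 were higher in Het, with a median of -0.02 that was 0.01 without Het replicate 2. The filament-severing protein Cfl1 was at 35384, 36003 and 38971 in WT and 34884, 33123 and 35088 in Het, so that the groups did not overlap, and it differed by -0.10 ± 0.07. The capping subunits Capza2 and Capzb were likewise below WT in every Het library, by -0.07 ± 0.06 and -0.09 ± 0.06. Ssh2, a phosphatase that reactivates cofilin, was above WT in every Het library, at 4566 to 4732 in WT and 4779 to 5071 in Het. In this list 3 of 20 genes (15%) lay below WT in every Het library and 1 above, against 3.31% and 3.36% of all genes. Tmsb10, which binds actin monomers, was at 29487, 27810 and 28419 in WT and 28273, 21647 and 24963 in Het, a difference of -0.20 ± 0.09 with overlapping groups.

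Upstream of WAVE, Rac1, the GTPase that binds the complex, was at 11138, 11143 and 11017 in WT and 10825, 10840 and 11748 in Het, a difference of 0.00 ± 0.05. Tiam2, a Rac exchange factor, was at 12289, 12358 and 10521 in WT and 12916, 13526 and 12648 in Het, above WT in every library (0.16 ± 0.11). Srgap2, a Rac-directed GTPase-activating protein of migrating neurons, was also above WT in every Het library (0.08 ± 0.07). For FMRP and its translation partners, 12 of 18 genes were higher, with a median of 0.02 that ran from 0.01 to 0.05 when each library was left out, and 9 of 18 were higher after quantile normalization. Fmr1 itself was at 3651, 3144 and 2938 in WT and 3243, 3433 and 3009 in Het, a difference of -0.00 ± 0.08. Its paralog Fxr2 lay above WT in every Het library (0.06 ± 0.05), and Stau2, which carries RNA into dendrites, lay below, at 4207, 4036 and 4333 in WT and 3673, 3825 and 3922 in Het (-0.14 ± 0.07). Each was 1 of 18, against 3.36% of all genes above and 3.31% below.

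The genes with the smallest p among those higher in Het included proteins of the nucleus, the cytoskeleton and RNA handling, none past the adjusted threshold. Ciz1, a nuclear matrix protein that takes part in DNA replication, was at 4082, 3865 and 4131 in WT and 4699, 4797 and 4693 in Het. Its Het libraries lay close together and well above every WT library, by 0.23 ± 0.05 (unadjusted p = 0.000769, adjusted p = 1.00 in limma), while the KO libraries held 3875, 4018 and 4094. Igf2bp1, a fetal RNA-binding protein that binds messages such as those of Igf2 and beta-actin, was at 1540, 1529 and 1442 in WT and 1738, 1764 and 1778 in Het, a difference of 0.23 ± 0.06. Rint1, which acts in transport between Golgi and endoplasmic reticulum, was at 656, 679 and 579 in WT and 794, 859 and 1043 in Het. Its difference, 0.49 ± 0.12, was the largest of the 8 genes named here, and its highest value lay in Het replicate 3.
Arhgef2, a microtubule-bound exchange factor for small GTPases, was at 6584 to 7185 in WT and 7804 to 7932 in Het (0.19 ± 0.05). Syne2, which ties the nucleus to the cytoskeleton, was at 10208, 9508 and 8666 in WT and 10863, 11609 and 10964 in Het (0.24 ± 0.06). In both genes every Het library lay above every WT library. The ubiquitin ligase Rnf123 differed by 0.23 ± 0.06, the matrix protease Adamts10 by 0.18 ± 0.05 and Leng8 by 0.23 ± 0.06, each above WT in every Het library. Leng8 was the most abundant of them, at 16162 to 18223 in WT and 19120 to 21417 in Het.

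The genes with the smallest p among those lower in Het included 3 of the mitochondrial genetic system, none past the adjusted threshold. Mrps23, a protein of the small mitochondrial ribosomal subunit, was at 1454, 1418 and 1335 in WT and 1060, 1037 and 1068 in Het. Every WT library lay well above every Het library, and the mean difference was -0.41 ± 0.10 (unadjusted p = 0.00218, adjusted p = 1.00 in limma), that is, 75.2% of WT. The KO libraries held 1203, 964 and 943. Tfam, which packages mitochondrial DNA and starts its transcription, was at 1724, 1719 and 1323 in WT and 1163, 1201 and 972 in Het, or 70.0% of WT (-0.51 ± 0.14); WT replicate 3 and Het replicate 3 were the lowest of their groups. Mrps11, another small-subunit protein, was at 683, 714 and 683 in WT and 599, 563 and 553 in Het (-0.28 ± 0.09).
Vps25, a subunit of the ESCRT-II complex that sorts membrane proteins into endosomes, was at 1423, 1410 and 1419 in WT and 1265, 1205 and 1105 in Het. The WT libraries lay close together, and Het held 84.1% of their level (-0.25 ± 0.07). Dlgap2, a postsynaptic scaffold protein, was at 610, 616 and 659 in WT and 415, 540 and 490 in Het (-0.39 ± 0.11), with its lowest value in Het replicate 1. E2f3, a transcription factor of cell cycle entry, was at 1066, 1040 and 1265 in WT and 792, 946 and 926 in Het (-0.34 ± 0.10). Mycbp, a MYC-binding protein, was at 207, 272 and 274 in WT and 151, 169 and 107 in Het (-0.83 ± 0.23), and its KO libraries held 115, 139 and 171. Eid1, an inhibitor of the acetyltransferase EP300, differed by -0.16 ± 0.04, and Sh3yl1, a phosphoinositide-binding SH3 protein, by -0.29 ± 0.08. Each of these genes was below WT in every Het library.

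**Figure D3:**
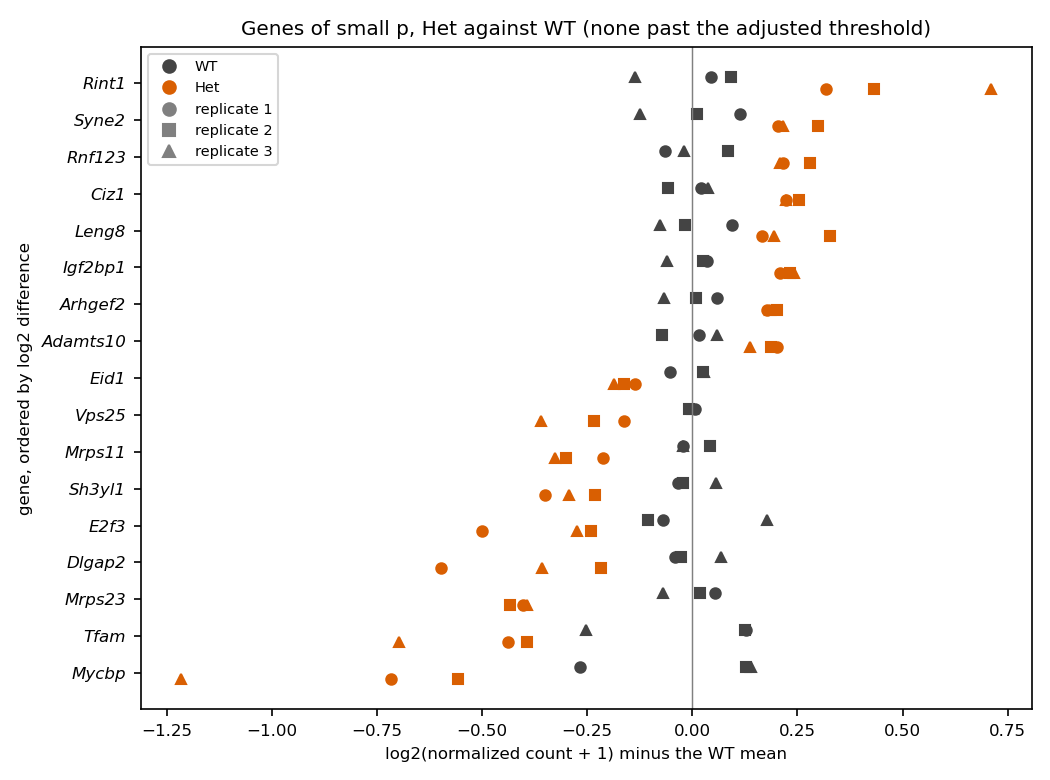
The genes named above for their small p in each direction, as log2(normalized count + 1) minus the WT mean of the gene, with 1 point per WT (grey) and Het (orange) library. The groups do not overlap in any of these genes, from Rint1 at 0.49 to Mycbp at -0.83, but they were chosen by the p of this comparison and none passed the adjusted threshold.

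Ranked by size among genes with groups that did not overlap and a mean of at least 100, and leaving out gene models without a proper name, the largest differences upwards were in Kcnmb2, Hba-a1, Tent5c, Ecm1 and Rint1. Kcnmb2, a subunit of the large-conductance calcium-activated potassium channel, was at 97.0, 131 and 136 in WT and 194, 157 and 218 in Het (0.64 ± 0.19), and its KO libraries held 161 to 188. Ecm1, a secreted matrix protein, was at 158, 207 and 211 in WT and 348, 253 and 230 in Het (0.52 ± 0.22), highest in Het replicate 1. Tent5c, a poly(A) polymerase, was at 78.1 to 81.3 in WT and 99.4 to 133 in Het (0.53 ± 0.28).

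Hba-a1, an alpha globin gene, was at 12724, 9968 and 9781 in WT and 17828, 16611 and 15721 in Het, 154% of the WT mean. The KO libraries, at 21315, 6077 and 8333, spanned both groups, and the difference of 0.64 ± 0.38 had a 95% interval from -0.23 to 1.504. Its neighbour Hba-a2 was at 22069, 15584 and 14846 in WT and 26110, 24691 and 22044 in Het, so that WT replicate 1 overlapped with Het replicate 3. The transcripts of the pair share a stretch of 415 bases, so the division of reads between them is uncertain. Of 20 erythroid genes listed, 11 were tested and 9 were higher in Het, with a median of 0.44, led by globins and by Alas2, the first enzyme of heme synthesis in red cells (459, 285 and 281 in WT, 602, 533 and 430 in Het). Among list members that other cells also use, the heme synthesis gene Fech differed by 0.01 ± 0.07 and the red cell metabolic gene Bpgm by 0.04 ± 0.10. The summed level of the list was 43956 to 65517 in WT and 66046 to 82335 in Het. The median was 0.17 without WT replicate 3, 0.27 without Het replicate 1 and 0.03 among the 4 libraries low in olfactory bulb RNA, a choice made after seeing the data. In these bulk samples, more blood in the tissue and more globin RNA per cell cannot be told apart, and the same holds for fewer cells and less RNA per cell of each type named below.
The window before the start of Hba-a2 is shown because it shares 247 consecutive bases with that of Hba-a1. Capitals mark a CCAAT and a TATAA on the gene's strand.
Hba-a2, chr11:32296242-32296488, plus strand, GRCm38.p6, RefSeq: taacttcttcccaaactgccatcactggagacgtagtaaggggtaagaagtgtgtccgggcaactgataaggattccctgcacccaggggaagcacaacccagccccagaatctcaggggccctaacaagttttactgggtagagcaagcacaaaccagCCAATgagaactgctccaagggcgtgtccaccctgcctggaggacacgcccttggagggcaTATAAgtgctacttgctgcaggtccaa
CCAAT occurred on the gene's strand in 19.1% of all windows of 250 bases and on either strand in 33.8%; for TATAA the shares were 15.997% and 22.8%. Both were present on the gene's strand in 3.202%.

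By the same rule, the largest differences downwards were in Uap1l1, Ddn, Mapk15, Calb1 and Ccn3. Ddn, the dendritic protein dendrin, was at 290, 314 and 231 in WT and 101, 183 and 124 in Het (-1.06 ± 0.64). Calb1, the calcium buffer calbindin, was at 338, 369 and 227 in WT and 104, 209 and 208 in Het (-0.88 ± 0.56). For both, every Het library lay below WT, but the KO libraries ran from 75.1 to 586 for Ddn and from 117 to 600 for Calb1, a spread that enters the standard errors. Uap1l1 was at 188, 157 and 107 in WT and 83.9, 72.0 and 53.03 in Het (-1.09 ± 0.34). Mapk15, an atypical MAP kinase, differed by -1.03 ± 0.58 and Ccn3, a secreted matricellular protein, by -0.88 ± 0.42. Sst, the somatostatin peptide of a class of interneurons, belongs with them in size: 985, 891 and 798 in WT against 434, 544 and 567 in Het, 57.8% of WT (-0.80 ± 0.36). Its KO libraries held 1180, 1377 and 445, so that 2 of them lay above every WT library and 1 within the range of Het.

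Most genes of the mitochondrial ribosome, the largest of the gene lists, had lower means in Het. Of its 79 genes, 61 were lower and 18 higher in Het, with a median of -0.05. Every Het library lay below every WT library for 8 (10.1%), and none had every Het library above. The share below was 3.31% of all genes and 5.31% of the shortest transcript class described below. The 8 were Mrpl19, Mrpl36, Mrps6, Mrps11, Mrps16, Mrps18b, Mrps23 and Mrps24. Of the 79, 3 had an unadjusted p below 0.05 in limma, against 1.61% of all genes. Mrpl19, of the large subunit, was at 1066, 1428 and 1043 in WT and 740, 886 and 880 in Het (-0.49 ± 0.17). Mrps16 was at 566, 584 and 571 in WT and 563, 498 and 484 in Het, so that Het replicate 1 was just below WT. The list's median relative to WT was -0.01, -0.11 and -0.03 in Het replicates 1, 2 and 3 and -0.01, 0.04 and -0.04 in WT, and without Het replicate 2, 33 of 79 genes were higher in Het.
The genes that maintain and transcribe mitochondrial DNA were evenly split: 12 of 24 were higher and 12 lower. Top1mt, the mitochondrial topoisomerase, was at 388, 390 and 421 in WT and 332, 321 and 352 in Het (-0.25 ± 0.10) and, with Tfam, lay below WT in every Het library. Polg2, the accessory subunit of the mitochondrial polymerase, and Mterf3, a repressor of mitochondrial transcription, lay above WT in every Het library by 0.10 ± 0.13 and 0.14 ± 0.08. Thus 2 of 24 lay below (8.33%) and 2 of 24 above, against 3.31% and 3.36% of all genes. Of the nuclear genes of oxidative phosphorylation, 15 of 52 were higher, with a median of -0.03 that was 0.01 without Het replicate 2. Cox7c, a subunit of cytochrome oxidase, was at 2310, 2175 and 2093 in WT and 2139, 1653 and 1725 in Het (-0.26 ± 0.10), and Ndufb5, of complex I, differed by -0.19 ± 0.08. Both overlapped between groups through Het replicate 1, while Ndufs7, Sdhd, Uqcrb and Atp5j were below WT in every Het library. These were 4 of 52 (7.69%), against 3.31% of all genes and 5.31% of the shortest transcript class described below. Cytosolic ribosomal protein genes had 20 of 54 higher, with a median of -0.02, and 34 of 54 higher without Het replicate 2.

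These mitochondrial and ribosomal lists are made largely of genes with short annotated transcripts, and such genes as a class were slightly lower in Het. Length and GC content were those of the longest annotated transcript of each gene, whether or not it is the form expressed in cortex. The 15047 genes with a length were split into 4 classes of like size. In the shortest class (136 to 2193 bases), 63.3% were lower in Het, the median was -0.04, and every Het library was below WT in 5.31% and above it in 2.18%. In the longest class (4845 to 123179 bases) 41.3% were lower, the median was 0.02, and the shares were 1.22% below and 4.89% above. The trend was carried by Het replicates 2 and 3, with medians of -0.07 and -0.03 in the shortest class and 0.05 and 0.05 in the longest, while Het replicate 1 had 0.01 and -0.00. Across genes, which are not independent replicates, the Spearman correlation of length with the Het to WT difference was 0.16, and that of GC content was near 0 (-0.00062). The share of genes with every Het library above WT nevertheless went from 2.37% in the class of lowest GC to 4.78% in the highest.
Of the mitochondrial ribosomal list, 53.2% of genes were in the shortest class, of oxidative phosphorylation 80.8% and of cytosolic ribosomal proteins 87.0%. The 10 genes with the smallest p had a median length of 5163 bases among those higher and 1979 bases among those lower. Whether length bears on these gene differences was not tested.

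**Figure D4:**
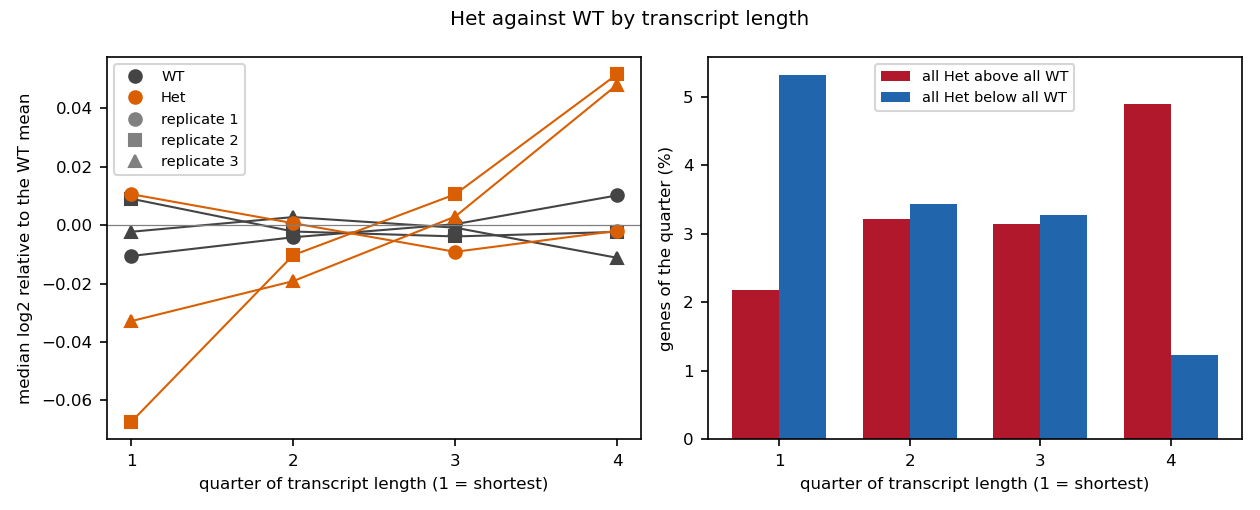
Left, the median log2 level of each WT (grey) and Het (orange) library relative to the WT mean, by class of transcript length; right, the share of genes (%) with every Het library above or below every WT library. Het replicates 2 and 3 go from -0.07 and -0.03 in the shortest class to 0.05 in the longest, and Het replicate 1 stays near 0.

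The ESCRT machinery, to which Vps25 belongs, had 9 of 24 tested genes higher in Het and a median of -0.03. Chmp2b, an ESCRT-III subunit, was also below WT in every Het library, at 1304, 1309 and 1587 in WT and 1236, 1159 and 1291 in Het (-0.18 ± 0.09). With Vps25 this made 2 of 24 (8.33%), against 3.31% of all genes. The partners of Vps25 in ESCRT-II were close to WT: Snf8 differed by -0.08 ± 0.07 and Vps36 by -0.01 ± 0.06. Vta1, which assists the Vps4 ATPase, went the other way (1931, 1930 and 1947 in WT, 2271, 1933 and 2494 in Het; 0.20 ± 0.09), with Het replicate 2 inside the WT range. In the IGF system, to which Igf2bp1 is linked by its target, 9 of 18 genes were higher, with a median of -0.02. That median was -0.14 without Het replicate 1 and lay between -0.14 and 0.17 over all alternatives run. The receptor Igf1r was at 2910, 3001 and 2653 in WT and 3041, 3101 and 3203 in Het, above WT in every library (0.13 ± 0.06). With Igf2bp1 this made 2 of 18, against 3.36% of all genes. The ligand Igf2, which meningeal cells make in large amounts, was at 8888, 9213 and 10644 in WT and 16066, 8814 and 1458 in Het.

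Genes of the cortical layers had medians slightly above WT, but the library medians of the genotypes overlapped. For deep layers they were 0.05, 0.03 and -0.09 in WT and -0.03, 0.10 and 0.06 in Het. For upper layers they were 0.08, -0.04 and 0.12 in WT and 0.07, -0.02 and 0.17 in Het. For deep-layer neurons 10 of 15 markers were higher, with a median of 0.02 that was 0.13 without Het replicate 1 and between 0.01 and 0.06 without each other library. Sox5, a transcription factor of these neurons, was at 8441, 7602 and 6412 in WT and 8701, 8941 and 8253 in Het (0.21 ± 0.10), with WT replicate 1 reaching into the Het range. Tbr1 differed by 0.13 ± 0.08, and Pcp4, a calmodulin-binding protein, was below WT in every Het library (754, 674 and 721 against 649, 595 and 610). Pcp4 made 1 of 15 (6.67%) below WT, against 3.31% of all genes. For upper-layer neurons 12 of 16 were higher, with a median of 0.09 that was 0.03 without Het replicate 3 or without WT replicate 2. Cux2, which marks these layers, was at 7611, 7176 and 6707 in WT and 8122, 8357 and 7687 in Het (0.17 ± 0.10). It was the 1 member of 16 with every Het library above WT, against 3.36% of all genes.

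Progenitor and cell cycle genes varied widely between libraries of the same genotype. Of 35 cell cycle and DNA replication genes 27 were higher in Het, with a median of 0.09, but the library medians were 0.40, 0.13 and -0.28 in Het and 0.21, -0.03 and -0.15 in WT. Mki67, a marker of dividing cells, was at 5958, 4763 and 4194 in WT and 6542, 5774 and 3926 in Het, the highest and the lowest of the 6 both in Het. Without Het replicate 3 all 35 were higher (median 0.28), without Het replicate 1 the count was 10 (median -0.03), and among the 4 libraries low in olfactory bulb RNA it was 3 (median -0.15). Intermediate progenitor genes had 11 of 16 higher (median 0.08), 7 without Het replicate 1 and 5 without WT replicate 3. Eomes, their defining transcription factor, was at 3758, 3357 and 2806 in WT and 4259, 3778 and 3106 in Het, with Het replicate 3 inside the WT range. Radial glia genes had 4 of 19 higher (median -0.07) and 15 of 19 without Het replicate 3. Pax6, a radial glia transcription factor and 1 of the 4 members higher in Het, differed by 0.31 ± 0.21. It was at 1759, 1471 and 1354 in WT and 2057, 1998 and 1625 in Het. Fabp7, a further member, was at 17068, 17017 and 13628 in WT and 17109, 14994 and 13150 in Het (-0.08 ± 0.21). Ptprz1 differed by 0.14 ± 0.08.

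Interneuron genes were mostly lower: 16 of 20, with a median of -0.09. Sst was the 1 member of 20 (5%) whose groups did not overlap, against 6.67% of all genes in either direction. Gad1, which makes GABA, was at 2218, 1805 and 2518 in WT and 2776, 1717 and 1595 in Het, spanning WT in both directions. Lhx6, a transcription factor of the interneuron class that includes Sst cells, was at 3379, 3657 and 3294 in WT and 2885, 3401 and 3539 in Het (-0.08 ± 0.10), with overlapping groups. Maf, expressed in the same class, differed by -0.16 ± 0.08. Without WT replicate 3, 10 of 20 were higher, with a median of -0.01, and without Het replicate 1, 7 of 20, with a median of -0.21. Cajal-Retzius genes were lower in 8 of 9 (median -0.28, and -0.03 without Het replicate 3). Reln, their secreted signal, was at 14018, 15636 and 13695 in WT and 14222, 16484 and 10898 in Het, with Het replicate 3 lowest. Those of striatal projection neurons had 12 of 18 higher (median 0.08) and library medians of 0.82, 0.14 and -0.60 in Het; without Het replicate 1, 7 of 18 were higher.

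Synaptic and receptor genes had medians below WT that turned positive without Het replicate 1. Of 31 glutamate and GABA-A receptor subunits 10 were higher (median -0.13), but 17 of 31 (median 0.03) without that library, whose own median was -0.36. Gria2, the AMPA receptor subunit that limits calcium entry, went the other way, at 36520, 31602 and 28513 in WT and 34080, 37810 and 36683 in Het (0.17 ± 0.10). Grin2d, an NMDA receptor subunit, was at 651, 676 and 884 in WT and 541, 628 and 703 in Het (-0.23 ± 0.14). Of 35 genes of synaptic vesicles, adhesion and scaffolds, 12 were higher (median -0.01), 25 without Het replicate 1 (median 0.08) and 24 without WT replicate 3 (median 0.05). The vesicle protein Syp was at 6386, 6004 and 6951 in WT and 5708, 5800 and 6302 in Het (-0.12 ± 0.07), and the inhibitory adhesion protein Nlgn2 was at 13872, 12858 and 13483 in WT and 13751, 14296 and 14201 in Het (0.07 ± 0.05).
Axon guidance genes had 25 of 38 higher (median 0.04), and 18 of 38 without WT replicate 3. Robo2, a Slit receptor, was at 13081, 10172 and 13552 in WT and 16868, 12482 and 15407 in Het (0.28 ± 0.15), with Het replicate 2 inside the WT range. Efnb3, a membrane-bound ligand of Eph receptors, was at 5549, 6651 and 6378 in WT and 5227, 5563 and 5409 in Het (-0.19 ± 0.10), with WT replicate 1 just inside the Het range. Immediate early genes, which report neuronal activity, had 9 of 22 higher; the median of -0.05 was 0.02 after quantile normalization and 0.04 without Het replicate 3. Atf3, a stress-induced member, was below WT in every Het library (35.6, 32.4 and 35.2 against 25.4, 31.4 and 10.4). That made 1 of 22 (4.55%), against 3.31% of all genes.

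**Figure D5:**
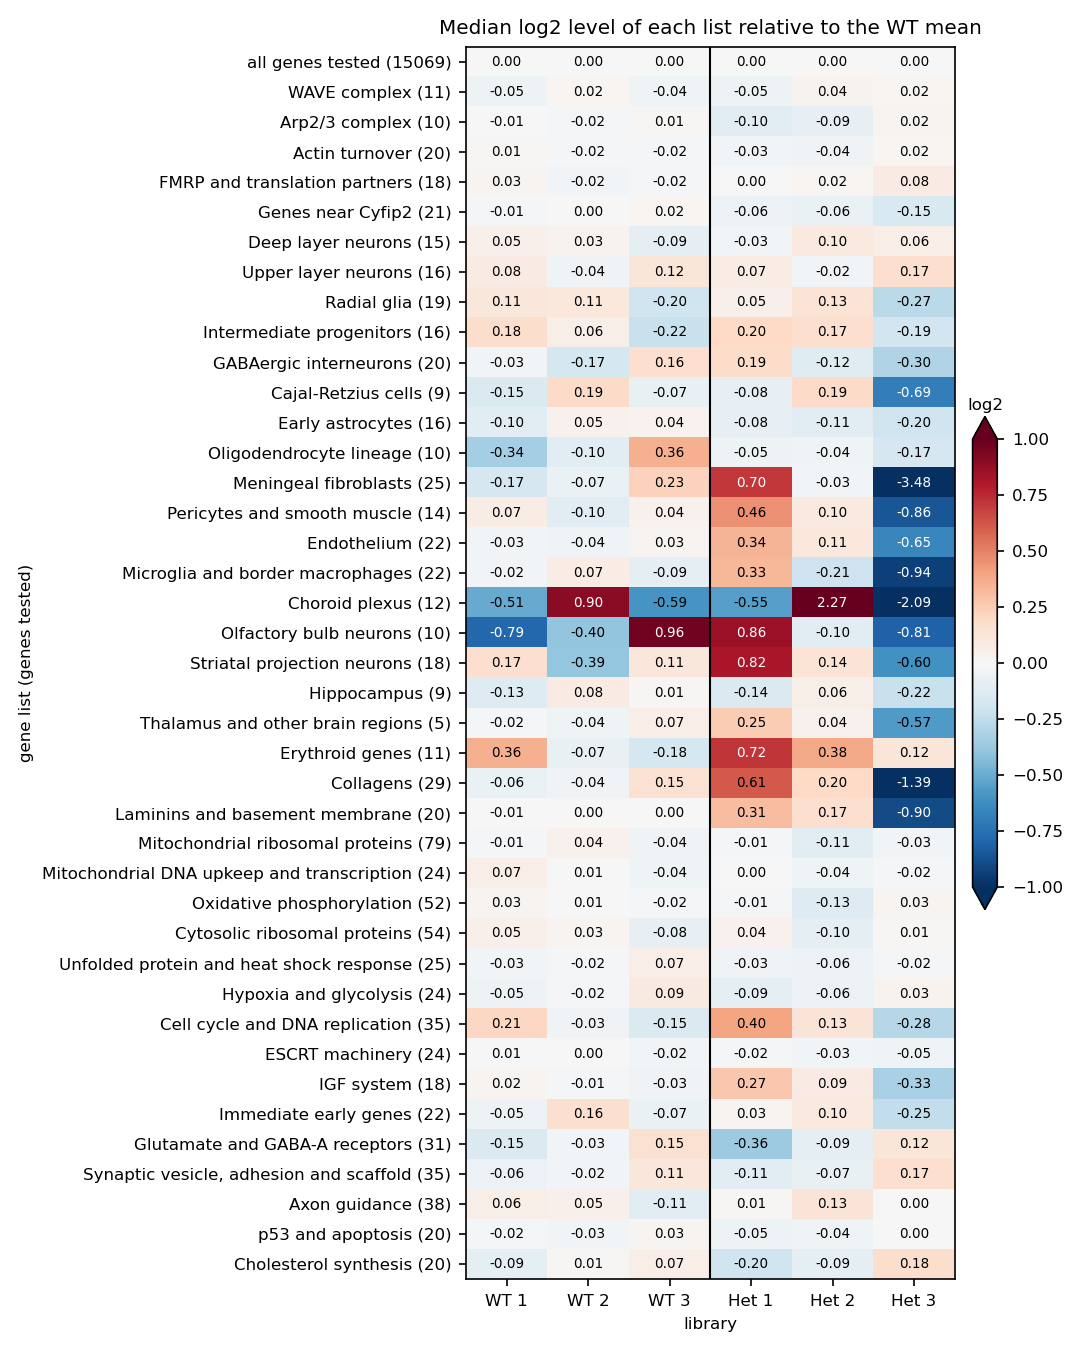
Median log2 level of the gene lists in each WT and Het library relative to the WT mean, with the number of genes tested in brackets and the colour scale ending at 1 log2 unit either way. Meningeal, vascular, macrophage and matrix lists are lowest in Het replicate 3 (meningeal median -3.48) and highest in Het replicate 1, while the ESCRT list stays within 0.05 of WT in all 6 libraries.

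Cells outside the neural lineage differed widely between the Het libraries. Meningeal fibroblast genes were lower in 24 of 25 (median -1.17), but the library medians were 0.70, -0.03 and -3.48 in Het replicates 1, 2 and 3, and without Het replicate 3, 21 of 25 were higher (median 0.31). Col3a1, a fibrillar collagen, was at 3613, 4538 and 4816 in WT and 8886, 5340 and 136 in Het. The meningeal transporter gene Slc22a6 was at 718, 661 and 921 in WT and 1360, 744 and 11.03 in Het, and its relative Slc22a2 was listed at 0 in Het replicate 3. The summed level of the list was 31327 to 39902 in WT and 5222 to 58058 in Het. In Het replicate 3, 23 of the 25 genes were at least 1 log2 unit below all 5 other libraries.
Collagens had 7 of 29 genes higher (median -0.24) and 27 of 29 without Het replicate 3 (median 0.42), and laminins and other basement membrane genes 5 of 20 (median -0.14) and 18 of 20 without it (median 0.22). Col4a1, the collagen of vascular basement membranes, was at 9317, 9074 and 9628 in WT and 14261, 10705 and 3897 in Het. Agrn, a basement membrane proteoglycan that neurons also make, was at 33532, 32578 and 31849 in WT and 33828, 37130 and 33389 in Het, and was not lowest in Het replicate 3. Vascular genes were less extreme: endothelial genes had 4 of 22 higher (20 of 22 without Het replicate 3) and pericyte genes 2 of 14 (13 of 14 without it). Kdr, the main endothelial receptor for VEGF, was at 2140, 2253 and 2233 in WT and 2862, 2676 and 1200 in Het. The summed endothelial level was 20684 to 22367 in WT and 13597 to 26626 in Het, that of pericytes 11864 to 12749 and 7650 to 15945.

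Among 22 microglia and border macrophage genes, 2 were higher in Het (median -0.30), and 14 without Het replicate 3 (median 0.14). The genes of macrophages at the brain's borders had the larger gaps in that library: the mannose receptor Mrc1 was at 827, 958 and 702 in WT and 1401, 706 and 82.8 in Het, and Lyve1 at 186, 276 and 203 in WT and 405, 195 and 6.57 in Het. P2ry12, a purine receptor of parenchymal microglia, was 1 of the 2 members higher in Het. It was at 145, 133 and 115 in WT and 167, 131 and 131 in Het (0.12 ± 0.16). In Het replicate 3 the list's median relative to the WT mean was -0.94. There, 8 of the 22 genes were at least 1 log2 unit below all 5 other libraries. Trem2, a microglial lipid receptor, was at 72.8, 91.3 and 74.1 in WT and 66.6, 58.7 and 55.7 in Het (-0.39 ± 0.20). It was the 1 member of 22 (4.55%) with every Het library below WT, against 3.31% of all genes. Choroid plexus genes split by replicate 2, with library medians of 0.90 in WT replicate 2 and 2.27 in Het replicate 2 against -0.51 and -0.59 in the other WT libraries and -0.55 and -2.09 in the other Het libraries. Their summed level was 449 to 3845 in WT and 105 to 12401 in Het, and Folr1, a folate receptor of this epithelium, was listed at 0 in Het replicate 1. The sum over microglia and border macrophage genes was 6217 to 7005 in WT and 2919 to 8780 in Het.
Early astrocyte genes had 4 of 16 higher, with a median of -0.14 that was -0.08 without Het replicate 3 and -0.22 without WT replicate 1. Sparcl1, a secreted matricellular protein, was at 7186, 8211 and 10637 in WT and 7462, 7954 and 8286 in Het (-0.12 ± 0.12). Slc1a2, a glutamate transporter, was at 2852, 3682 and 3283 in WT and 2172, 2817 and 2371 in Het (-0.42 ± 0.38). It was the 1 member of 16 (6.25%) with every Het library below WT, against 3.31% of all genes. The gap junction gene Gjb6, which meningeal cells also express, was at 278, 314 and 345 in WT and 418, 169 and 2.58 in Het. Oligodendrocyte lineage genes had 4 of 10 higher; the median of -0.07 was 0.04 after quantile normalization and 0.06 without Het replicate 3.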

How the data were processed

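RNA was sequenced from 9 cortex libraries made with a TruSeq Stranded mRNA kit, per the labels' protocols. The authors deposited 1 table of a signal per gene, which from its values is a gene count over a library size factor. Without giving a role or order, the submitters' processing notes list R 3.6.0, the build GRCm38, DESeq2 1.19.11 and Salmon 0.11.2. Approximate depths came from the spacing of low values, taken as the worth of 1 read (0.675 to 1.21 among the 6 libraries). Between 64.1% and 78.5% of values below 6 were within 0.1 of a whole step, so reads could not be recovered and count tests were left out.

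The test scale was log2(value + 1) for genes with a mean of at least 10. Genotype means over 9 libraries were fitted with limma 3.58.1 under R 4.3.3 (eBayes with a trend, two-sided, Benjamini-Hochberg over 15069 genes at 0.05). It was tested on simulated data. Symbols, coordinates and lengths came from GENCODE M21; 18783 of 18820 IDs matched a symbol. Sequences came from the RefSeq promoter table. The comparison, the single test of Fndc9 and the 42 gene lists were chosen with earlier results of these data known.

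Named genes are Cyfip2, Fndc9 and the WAVE subunits, the 10 genes with the smallest p in each direction, the 5 largest non-overlapping differences in each direction with a mean of at least 100, and up to 4 members of each list (the 2 highest and the 2 smallest p); further list members, including those with non-overlapping groups, were named after their values were seen. Gene models without a proper name were left out of these rankings, and some genes and 1 gene list within the rules are not reported. Alternatives were the replicate block, pseudocounts of 0.5 and 5, other filters, quantile and upper-quartile rescaling, WT and Het only, array weights, leaving out each replicate, sex, and olfactory bulb RNA. The fit to the 4 WT and Het libraries low in olfactory bulb RNA (Cdhr1 below 500) was chosen after seeing the data.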

Additional observations from a re-analysis of the deposited data

How the results depend on the processing

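Single libraries moved many list medians. 19 alternatives were run. limma called 1 gene with WT and Het libraries only (Gm3650, adjusted p = 0.0195), with array weights (Gm3650, adjusted p = 0.0382) and among male WT and Het libraries, which is the fit without Het replicate 1 (Gm14288, adjusted p = 0.0222), and 1 without WT replicate 1 (Lenep, adjusted p = 0.00413), named after their values were seen; leaving out each replicate in turn gave 0 to 1, and the other settings 0. Gm3650 was at 49.5, 67.6 and 63.0 in WT and listed at 0 in all Het libraries. Lenep was listed at 0 in WT replicates 2 and 3 and at 110 in WT replicate 1, within 95.7 to 106 in Het, and Gm14288 was listed at 0 in Het replicates 2 and 3. Genes with an unadjusted p below 0.05 numbered 242, and 3562 with array weights, 517 in male libraries, 376 without the filter and 777 with sex as a covariate. The array weights were 7.12 for Het replicate 2, 3.77 for WT replicate 2 and 0.31 to 0.89 for the other WT and Het libraries. That fit therefore rested mainly on 1 library of each group. Leaving out replicates gave 159 genes at that p (without WT replicate 2) to 517 (without Het replicate 1), with 364 without Het replicate 3 and 392 without WT replicate 1. Same-numbered WT and Het libraries had correlated deviations for replicate 2 (0.25) but not for replicates 1 and 3 (-0.07 and 0.035), so the numbers were not taken as pairs, and not every library correlated best with its own number; the replicate block gave 493 such genes and called 0. Settings were followed for 29 genes, Cyfip2, Fndc9 and those chosen for the smallest p or the largest difference. All 550 pairs of such a gene and a setting kept the direction and stayed uncalled. The Het and WT libraries of each of these genes did not overlap. Leaving out or reweighting libraries therefore could not reverse their direction, and the kept direction is not a check of them. Genes named through a list were not followed singly. Cyfip2 ranged from -0.18 to -0.06 and Fndc9 from -1.15 to -0.59. Of the 42 lists, 30 changed the sign of their median under at least 1 setting and 12 did not.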

Other observations

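The medians of the stress response and p53 lists lay close to WT in all Het libraries. Of 25 genes of the unfolded protein and heat shock response, 5 were higher in Het, with a median of -0.04. Hspa5, the main chaperone of the endoplasmic reticulum, was at 7571, 7333 and 7955 in WT and 7441, 7548 and 7598 in Het, and the cytosolic chaperone Hspa8 at 82610, 78510 and 75674 in WT and 77940, 83515 and 88830 in Het. Xbp1, a transcription factor of this response, differed by -0.12 ± 0.08. Of 20 p53 and apoptosis genes 9 were higher, and Ccng1, a p53 target, was below WT in every Het library (1353, 1412 and 1485 against 1294, 1342 and 1277), as was Mcl1, a survival factor (4422, 4475 and 4437 against 4291, 4153 and 4337). They were 2 of 20 (10%), against 3.31% of all genes.

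Cholesterol synthesis genes had 6 of 20 higher in Het (median -0.05), 14 of 20 without Het replicate 1 and 1 of 20 without Het replicate 3. Their library medians were -0.20, -0.09 and 0.18 in Het replicates 1, 2 and 3. Hmgcs1, an early enzyme of the pathway, was at 21227, 22002 and 25808 in WT and 17710, 20676 and 26375 in Het. Enzymes that act on mevalonate in sequence, Mvk and Pmvk, were below WT in every Het library: Mvk was at 975 to 1093 in WT and 947 to 971 in Het, Pmvk at 1106 to 1218 in WT and 1010 to 1102 in Het. They were 2 of 20 (10%), against 3.31% of all genes. Genes of hypoxia and glycolysis had 8 of 24 higher (median -0.03), and the glucose transporter Slc2a3 was at 1926, 1927 and 2199 in WT and 1440, 1739 and 2088 in Het.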
